A study of Mus musculus with 12 samples.

Results

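The 7 transcription factor genes described here, Sox4, Sox9, Sox11, Pax2, Pax8, Runx1 and Cebpb, build organs in the embryo or steer the response of adult cells to damage. They were taken by symbol from a table of 55471 genes, and each symbol matched 1 row. Whole left kidneys were sequenced, so no value says which cells held a transcript, and less RNA per cell cannot be told apart from fewer cells of a type. All mice were of strain C57/BL6 and 8 to 12 weeks old. The left ureter was clamped, which stops urine from leaving that kidney (UUO, unilateral ureteral obstruction), and kidneys of day 0 and day 5 were compared. There were 2 wild type kidneys at day 0, 3 wild type kidneys at day 5, 4 Sprr2f knockout (KO) kidneys at day 0 and 3 Sprr2f KO kidneys at day 5. Sprr2f belongs to the small proline-rich genes of epithelial barriers. The labels give UUO as the treatment of every sample, do not say whether day 0 kidneys were sham-operated, and do not say how the KO allele was made. They name separate samples and nothing more, so p-values rest on the spread among them, and that spread may be technical.

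Sox proteins bind DNA through an HMG box. Sox9 marks the ureteric tips and early tubules of the embryonic kidney, is silent in most adult tubule cells and is known to return in tubule cells that repair an injury, while Sox4 and Sox11 form the SoxC pair of the nephron progenitor and its early derivatives. Pax2 and Pax8 are paired-domain proteins needed to make nephrons, and parts of the adult nephron and collecting duct keep them. Runx1 binds DNA with its partner CBF-beta and is best known as a master regulator of blood formation, and Cebpb encodes C/EBP-beta, a leucine zipper protein of the acute-phase and macrophage programmes.

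Each library held 16567256 to 19398882 reads counted to genes, and 18093 genes were tested. Levels are given as scaled CPM, that is, CPM (reads scaled to the same library total) divided by a scaling factor (TMM) of the library, which was 0.795 to 0.897 at day 0 and 1.13 to 1.19 at day 5. Leaving the factors out shifted the median obstruction difference of all genes by 0.37 (wild type) and 0.38 (KO) log2 units, so changes are relative to the factors. Differences are log2 differences of (scaled CPM + 0.5) with their standard error (SE), which understates the change of genes with few reads. A gene was called when its limma p-value, adjusted over all tested genes by the Benjamini-Hochberg method, was under 0.05. Whether groups overlapped is given as a description, and the share of all tested genes without overlap was not counted. Sprr2f itself had 482, 447 and 1138 reads in wild type at day 5 and 0, 39 and 76 in KO, and between 0 and 5 in every day 0 library. The series title names female mice, but 7 libraries held Y-linked transcripts (Y-linked genes summing to 112 to 170 CPM) and 5 held Xist instead (the same sum at 0.281 to 0.979). The Y-linked libraries were 1 of 2 in wild type at day 0 (replicate 1), 1 of 3 in wild type at day 5 (replicate 3), 4 of 4 in KO at day 0 and 1 of 3 in KO at day 5 (replicate 2). Where this pattern as a covariate ended a call on a named gene or moved its obstruction difference by over 1.5 times, that value is given beside the result.

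The promoters of 3 genes that rose strongly and of Cebpb, the member that passed in 1 genotype only, show how unlike their start regions are. RefSeq windows (GRCm38.p6) run from 250 bases before to 50 bases after each start site, are read 5′ to 3′ on the strand of the gene, and have matches to the motifs below in capitals.
Sox4 (chr13:28953650-28953949, minus strand): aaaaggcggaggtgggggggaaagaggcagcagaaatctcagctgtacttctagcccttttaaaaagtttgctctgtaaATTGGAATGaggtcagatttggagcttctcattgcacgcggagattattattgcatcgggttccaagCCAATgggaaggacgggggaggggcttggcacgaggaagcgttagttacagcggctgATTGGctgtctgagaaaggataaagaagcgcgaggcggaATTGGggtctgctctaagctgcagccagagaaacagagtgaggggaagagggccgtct
Sox11 (chr12:27342669-27342968, minus strand): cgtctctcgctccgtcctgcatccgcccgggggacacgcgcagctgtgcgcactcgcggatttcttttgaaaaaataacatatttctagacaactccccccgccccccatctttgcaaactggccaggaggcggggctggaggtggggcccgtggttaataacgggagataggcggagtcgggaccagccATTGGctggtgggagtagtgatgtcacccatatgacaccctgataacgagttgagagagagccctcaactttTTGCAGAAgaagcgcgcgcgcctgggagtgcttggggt
Runx1, proximal start (chr16:92697280-92697579, minus strand): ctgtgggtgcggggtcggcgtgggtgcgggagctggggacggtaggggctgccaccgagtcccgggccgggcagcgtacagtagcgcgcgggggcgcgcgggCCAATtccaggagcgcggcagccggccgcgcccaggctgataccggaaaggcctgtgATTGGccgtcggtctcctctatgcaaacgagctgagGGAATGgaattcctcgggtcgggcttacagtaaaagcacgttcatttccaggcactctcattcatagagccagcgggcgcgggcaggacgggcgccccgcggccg
Cebpb (chr2:167688665-167688964, plus strand): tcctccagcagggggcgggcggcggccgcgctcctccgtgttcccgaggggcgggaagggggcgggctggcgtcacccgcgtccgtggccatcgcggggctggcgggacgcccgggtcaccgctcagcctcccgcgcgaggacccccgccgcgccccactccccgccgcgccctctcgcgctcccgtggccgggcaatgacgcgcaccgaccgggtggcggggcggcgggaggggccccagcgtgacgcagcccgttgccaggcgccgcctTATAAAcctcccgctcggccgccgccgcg
Both strands were searched. For the AP-1 motif the letters were TGANTCA, and for the CRE motif TGACGTCA. C/EBP proteins were represented by TTGCNNAA, and STAT proteins by TTCNNNGAA. For RUNX proteins either TGTGGT or else TGCGGT was taken, for SOX proteins AACAAT, and for TEAD proteins GGAATG. The TATA box was searched as TATAAA and the CCAAT box by its name. The Sox4 window held 4 CCAAT boxes, which start at positions -171, -104, -47 and -8 from the start site. At least 4 were found in 1.06% of the 32851 promoter windows, and the first of them overlaps a GGAATG at -168. Sox11 and Runx1 had 1 and 2 CCAAT boxes, and Cebpb had none. The Cebpb window was 80.7% G and C, above 99.2% of windows, against 52.0% in Sox4, 58.7% in Sox11, 69.0% in Runx1 and a median of 52.7%. It matched only the TATA box among these motifs, at position 22 after the start site, and held 5 GC boxes (GGGCGG, found in 35.7% of windows and left in lower case). Over the 9 windows that 6 of the members have, CCAAT was found in 5 (37.4% of all windows hold it), RUNX in 2 (22.4%), C/EBP in 2 (10.8%), TEAD in 2 (14.7%), and AP-1 and SOX in 0 (7.81% and 10.7%). These are matches of letters and not sites of binding.

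In wild type kidneys, 6 of the 7 genes were called higher at day 5 of obstruction, where 24.5% of tested genes were called higher. In KO kidneys all 7 were called higher, against 29.4% of tested genes (47.1% and 54.8% were called in either direction). The 3 Sox genes and Runx1 rose by over 4-fold in fitted values in both genotypes, and Pax2 and Pax8 by less than 2-fold. Cebpb had the smallest difference of the 7 in wild type, and Pax2 had it in KO. The median difference of the 7 was 2.21 log2 units in wild type and 2.15 in KO, beside 0.04 and 0.07 over all tested genes.

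**Figure D1:**
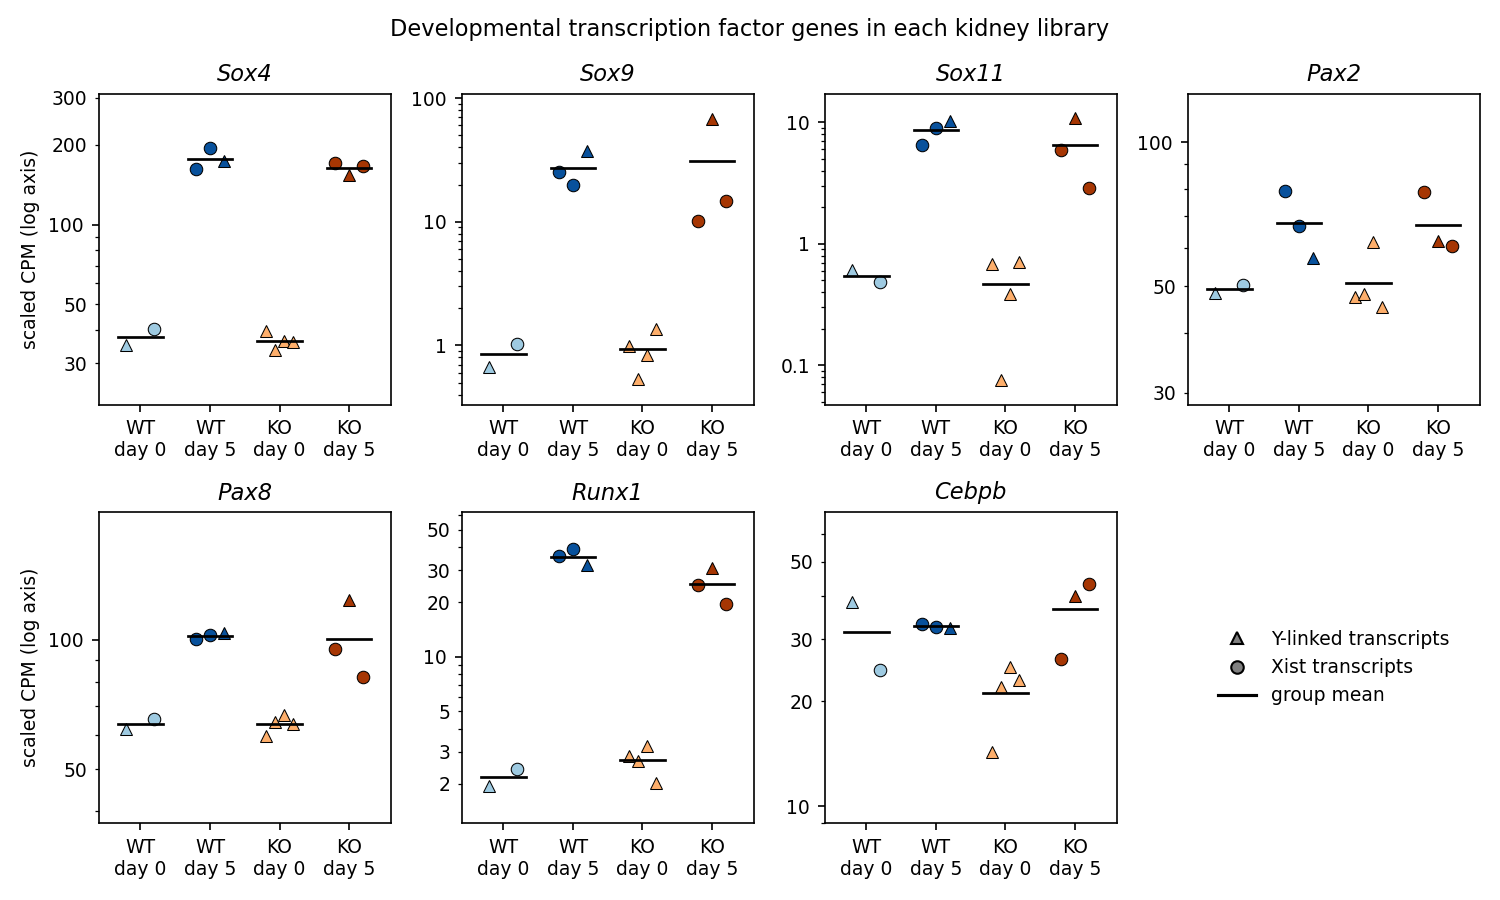
Scaled CPM (log axis) of each gene in the 12 libraries by group, with 1 point per library, triangles for Y-linked and circles for Xist libraries, and a bar at the group mean. Sox4, Sox9, Sox11, Pax8 and Runx1 show no overlap between day 0 and day 5 in either genotype, and Sox9 is highest at day 5 in the triangle of each genotype. How many of all tested genes lack such overlap was not counted.

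Sox4 (ENSMUSG00000076431, chromosome 13, 28948919 to 28953713, minus strand, a gene without introns) had the smallest standard error of the 7. Its scaled CPM at day 0 in wild type kidneys was 35.1 and 40.5, becoming 162, 195 and 174 by day 5. In KO kidneys it was 39.9, 33.6, 36.3 and 36.2 at day 0 and 171, 154 and 166 at day 5. Every day 5 library lay far above every day 0 library, and the genotypes overlapped at day 5. The log2 difference was 2.21 ± 0.10 (SE) in wild type (limma adjusted p = 6.05e-08) and 2.15 ± 0.09 in KO (limma adjusted p = 1.43e-08). By p-value Sox4 ranked 10 among the 18093 genes in wild type and 6 in KO. An opposite-strand lincRNA model, Gm26735, overlaps 2616 of the 4795 exon bases of Sox4 in GENCODE M21. How the authors' counting treated reads shared by overlapping genes is not given in the sources used here, so the level of Sox4 may be understated.

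Sox11 (ENSMUSG00000063632, chromosome 12, 27334264 to 27342574, minus strand), the close relative of Sox4, rose from a handful of reads. Wild type kidneys gave 10 and 8 reads at day 0, against 138, 177 and 236 by day 5, and in KO 11, 1, 6 and 12 at day 0 and 134, 219 and 62 at day 5. As scaled CPM these were 0.605 and 0.483, then 6.52, 8.92 and 10.3 in wild type, and 0.680, 0.0759, 0.389 and 0.714, then 5.91, 10.8 and 2.88 in KO. The lowest obstructed kidney, KO replicate 3, still stood above every day 0 library. Fitted differences were 3.10 ± 0.44 (SE) in wild type (limma adjusted p = 8.11e-05) and 2.76 ± 0.37 in KO (limma adjusted p = 3.88e-05). Because of the 0.5 CPM added these are smaller than the ratio of pooled reads relative to scaled depth, which was 15.9 in wild type (95% exact binomial interval 9.94 to 27.0) and 13.2 in KO (9.11 to 19.8), and with edgeR on the recovered reads they were 3.96 and 3.74. Such intervals cover counting error only. Per kilobase of exon Sox11 remained the least abundant member: its level was 0.131% to 1.14% of that of Sox4 at day 0 and 1.002% to 4.05% at day 5. The share was above every wild type day 0 value (0.995% and 0.689%) in all 3 wild type libraries at day 5 (2.32%, 2.64% and 3.44%), whereas KO replicate 3 at day 5 (1.002%) lay inside the KO range at day 0.

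Sox9 (ENSMUSG00000000567, chromosome 11, 112782224 to 112787760, plus strand) had the largest rise and the widest spread. Wild type kidneys had scaled CPM of 0.666 and 1.03 at day 0, against 25.2, 20.0 and 37.0 at day 5. Scaled CPM of Sox9 in KO kidneys was 0.989, 0.531, 0.843 and 1.37 at day 0 and 10.1, 68.0 and 14.8 at day 5. All obstructed kidneys lay above all day 0 kidneys, but the KO values at day 5 spanned a wide range, with replicate 2 on top and the other two below every wild type library. The difference was 4.34 ± 0.59 (SE) log2 units in wild type (limma adjusted p = 6.05e-05) and 3.99 ± 0.49 in KO (limma adjusted p = 2.12e-05). In pooled reads the ratio was 32.8 in wild type (28 reads at day 0, 95% interval 22.6 to 49.5) and 31.2 in KO (59 reads, 24.1 to 41.1). Both intervals cover counting error only, and 1380 of the 1927 pooled KO reads at day 5 came from replicate 2. Without KO replicate 2 at day 5 the KO difference of Sox9 was 3.18, with the sex-chromosome pattern as a covariate it was 4.68 ± 0.46, and with edgeR it was 5.01 (5.01 in wild type too). All of these were called.

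The library with the most Sox9 at day 5 was the Y-linked one in each genotype, wild type replicate 3 and KO replicate 2. These libraries also held the most Sox11, as given above, and, of the 4 injury genes named here, the most Havcr1 (an injury receptor of tubule cells), Krt20 (a keratin) and Vcam1 (an adhesion molecule). The other of the 4, Lcn2, was highest in KO replicate 2 (523 against 355 and 276) but not in wild type replicate 3 (476 against 536 and 347). Havcr1 stood at 1195 in wild type replicate 3 against 703 and 623, and at 1355 in KO replicate 2 against 394 and 332. Vcam1 stood at 568 against 365 and 315 in wild type and at 757 against 228 and 285 in KO. Sox4 did not follow this order, with its highest values in wild type replicate 2 (195) and KO replicate 1 (171), and Runx1 followed it in KO (30.7 in replicate 2) but not in wild type (31.9 in replicate 3, the lowest). Wild type replicate 3 and KO replicate 2 also had the highest day 5 sums of markers of urothelium (220 and 112 scaled CPM), fibroblasts (4292 and 3809) and neutrophils (68.3 and 32.8). Their proximal tubule sums were the lowest at day 5 (1690 and 1989). Not every cell type followed: macrophage sums were highest in KO replicate 2 but not in wild type replicate 3. Over all groups the term for Y-linked against Xist libraries was 1.03 ± 0.37 (SE) log2 units for Sox9 (limma adjusted p = 0.108) and 0.66 ± 0.30 for Sox11 (adjusted p = 0.198). It passed for 7.94% of tested genes and for 0 of the 7 members, and 2 of the 7 had an unadjusted p under 0.05. This term was examined after the values had been seen. With 1 Y-linked library in each obstructed group, sex, degree of injury, cell composition and replicate cannot be told apart.

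Pax2 (ENSMUSG00000004231, chromosome 19, 44756045 to 44837871, plus strand) and Pax8 (ENSMUSG00000026976, chromosome 2, 24420560 to 24475599, minus strand) were already abundant at day 0. Pax8 had scaled CPM of 62.1 and 65.3 in wild type at day 0 and 100.5, 103 and 104 at day 5, with 59.8, 64.2, 66.7 and 63.6 and then 95.2, 124 and 82.0 in KO. Day 0 and day 5 did not overlap. Pax8 rose by 0.68 ± 0.13 (SE) log2 units in wild type (limma adjusted p = 0.000963) and by 0.64 ± 0.11 in KO (limma adjusted p = 0.000349), 1.603-fold and 1.55-fold. Pax2 had 48.5 and 50.2 at day 0 and 79.0, 67.0 and 57.4 at day 5 in wild type, and 47.6, 48.2, 61.8 and 45.3 and then 78.6, 62.3 and 60.7 in KO. In wild type the Pax2 groups did not overlap, but in KO the highest day 0 kidney (replicate 3) lay above the lowest day 5 kidney. The Pax2 difference was 0.44 ± 0.16 (SE) in wild type (limma adjusted p = 0.0351) and 0.40 ± 0.13 in KO (limma adjusted p = 0.0204).

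Of the rises among the 7 genes, that of Pax2 was the only one whose call depended on the settings tried. With the sex-chromosome pattern as a covariate the KO difference of Pax2 was 0.28 ± 0.14 (adjusted p = 0.116), and with no filter on low values the wild type adjusted p was 0.0659. Leaving out wild type day 0 replicate 1 or 2 or day 5 replicate 1 or 2 gave Pax2 0.41, 0.46, 0.33 and 0.45 in wild type, and leaving out KO day 0 replicate 1, 2 or 4 or day 5 replicate 1 gave 0.36, 0.36, 0.33 and 0.29 in KO, none of them called. Within the Xist libraries alone, which leave 1 wild type kidney at day 0 and 2 at day 5, the wild type difference of Pax2 was 0.55.

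Runx1 (ENSMUSG00000022952, chromosome 16, 92601466 to 92826149, minus strand) rose more than any member but Sox9 in limma's fits, although edgeR on the recovered reads gave Sox11 the larger value in KO (3.74 against 3.21 for Runx1). The wild type libraries had scaled CPM of 1.94 and 2.42 at day 0, against 35.6, 39.1 and 31.9 at day 5, and in KO 2.84, 2.66, 3.24 and 2.02 at day 0 and 24.7, 30.7 and 19.6 at day 5. Every obstructed kidney stood far above every day 0 kidney. The 3 wild type libraries at day 5 all stood above the 3 KO libraries, but that difference was not called (limma adjusted p = 0.836). How many of all tested genes separate in this way was not counted. The rise was 3.75 ± 0.21 (SE) log2 units in wild type (limma adjusted p = 1.18e-07) and 2.99 ± 0.17 in KO (limma adjusted p = 6.28e-08). Pooled reads relative to scaled depth rose 16.3-fold in wild type (95% interval 12.9 to 20.9) and 9.29-fold in KO (7.91 to 10.97). Both intervals cover counting error only and are no test of genotype. From the spread among libraries, limma's 95% intervals of the fold were 9.87 to 18.4 in wild type and 6.12 to 10.3 in KO.

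Runx1 is also made by white blood cells, whose markers rose in the same kidneys. All 8 macrophage markers were called higher in both genotypes, and their summed scaled CPM went from 174 to 181 in wild type and 181 to 240 in KO at day 0 to 814 to 1009 and 882 to 1228 at day 5. For the 6 neutrophil markers the sums were 1.15 to 3.14 and 0.865 to 1.75 at day 0, and 34.2 to 68.3 in wild type and 4.23 to 32.8 in KO at day 5, with Ly6g under 1 in every library. T cell marker sums ranged from 6.16 to 8.22 at day 0, and from 11.3 to 27.0 by day 5. Erythroid and platelet marker sums lay between 86.7 and 221 at day 0, and between 168 and 280 at day 5 except for wild type replicates 1 and 2 at day 5 (3526 and 976). Fibroblast and myofibroblast markers, 7 of 7 higher in both genotypes, went from 352 to 543 at day 0 to 2497 to 4292 at day 5. Proximal tubule markers, 6 of 6 lower in both, went from 9799 to 11928 to 1690 to 3778. The part of these cell types in the rises of Runx1 and of the other members was not tested.

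Cebpb (ENSMUSG00000056501, chromosome 2, 167688915 to 167690418, plus strand) differed from the others in that its wild type kidneys did not separate by day. It stood at 38.4 and 24.6 scaled CPM in wild type at day 0 and at 33.1, 32.4 and 32.4 at day 5. In KO kidneys Cebpb was 14.3, 21.9, 25.02 and 23.0 at day 0 and 26.3, 39.9 and 43.3 at day 5. The wild type day 5 values lay between the day 0 pair, whereas every KO day 5 library lay above every KO day 0 library. The difference was 0.09 ± 0.25 (SE) in wild type (95% interval -0.46 to 0.63, limma adjusted p = 0.809) and 0.78 ± 0.21 in KO (limma adjusted p = 0.00728). A call in KO and none in wild type is not a test of the difference between them, and the interaction of Cebpb was 0.69 ± 0.33 (adjusted p = 0.663, and 0.428 to 0.959 over the alternatives). Among Xist libraries alone, with 1 wild type kidney at day 0, the difference of Cebpb in wild type was 0.42. Exons of Tmem189, on the opposite strand, overlap 312 of the 1504 exon bases of Cebpb. Tmem189 had 33103 reads in all against 6755 of Cebpb, and it fell by 1.31 log2 units in wild type kidneys and by 1.12 in KO kidneys, so reads from that stretch could be misplaced if strand was not used.

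**Figure D2:**
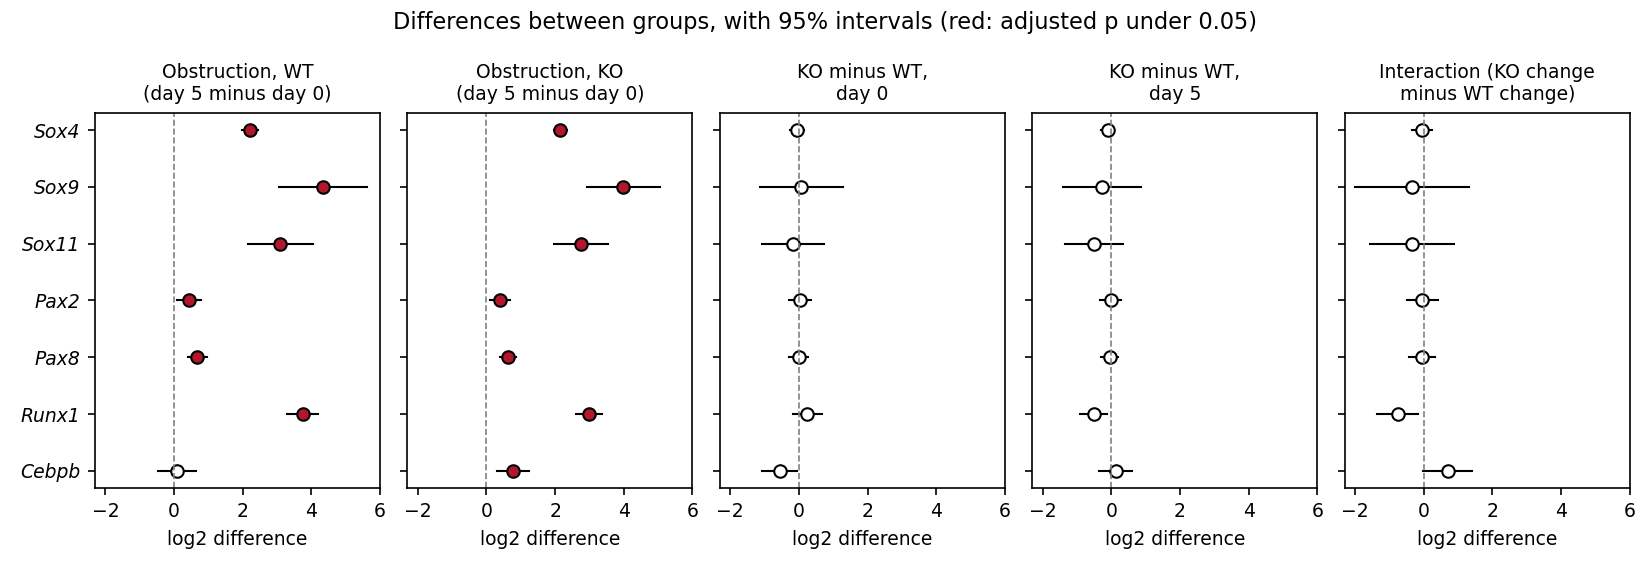
Log2 differences of each gene with 95% intervals in 5 comparisons, filled red where the adjusted p was under 0.05. Both obstruction panels hold filled points at every gene except Cebpb in wild type, and the KO against wild type and interaction panels hold none.

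The question of the series is how Sprr2f KO kidneys respond, and none of the 7 genes was called for genotype. At day 0 limma called 0 of 7 between KO and wild type (0.0166% of tested genes in either direction), at day 5 it called 0 of 7 (0% of tested genes), and for the interaction, the KO change minus the wild type change, 0 of 7 (0.00553%). At an unadjusted p under 0.05 there was 1 member in each of the 3 comparisons, where 14.97%, 5.67% and 7.59% of all tested genes had one. At day 0 that member was Cebpb, with -0.56 ± 0.24 (SE) log2 units (95% interval -1.08 to -0.05, limma adjusted p = 0.296), where the lowest wild type library (24.6) lay below the highest KO library (25.02). At day 5 it was Runx1, with -0.52 ± 0.19 (95% interval -0.92 to -0.12, limma adjusted p = 0.836). The interaction of Runx1 was -0.76 ± 0.27 (95% interval -1.35 to -0.18, limma adjusted p = 0.594).

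For Sox4 the data bound any genotype effect tightly: the KO minus wild type difference at day 5 was -0.11 (95% interval -0.31 to 0.09) and the interaction -0.06 (-0.35 to 0.23). The day 5 intervals of Pax8, at -0.05 (-0.30 to 0.21), and of Pax2, at -0.01 (-0.32 to 0.30), were somewhat wider. For Sox9 and Sox11 the intervals at day 5 were wide, -0.28 (-1.42 to 0.87) and -0.52 (-1.36 to 0.33), so a level in KO as low as 0.5 of wild type lies inside both. Within the Xist libraries at day 5, 2 in each genotype, the KO minus wild type difference was -0.86 (95% interval -1.34 to -0.38, adjusted p = 0.209) for Sox9, -0.76 (-1.12 to -0.41, adjusted p = 0.162) for Runx1 and -0.82 (-1.57 to -0.07, adjusted p = 0.505) for Sox11. The remaining members were at -0.21 (Pax8), -0.09 (Sox4), -0.08 (Pax2) and 0.03 (Cebpb) there, with intervals that include 0. In the Xist libraries Sox9 stood at 25.2 and 20.0 in wild type and 10.1 and 14.8 in KO, and in the Y-linked ones at 37.0 and 68.0, the opposite order. No such difference passed the threshold. At day 0 the KO minus wild type differences were -0.05 (95% interval -0.26 to 0.16) for Sox4, 0.03 (-0.30 to 0.35) for Pax2 and 0.24 (-0.18 to 0.67) for Runx1. Pax8 lay between -0.27 and 0.27 by its interval, Sox9 between -1.14 and 1.28 and Sox11 between -1.07 and 0.73. The other interactions were -0.35 (-2.01 to 1.32) for Sox9, -0.35 (-1.58 to 0.89) for Sox11, -0.04 (-0.49 to 0.41) for Pax2 and -0.05 (-0.42 to 0.33) for Pax8.

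Divided by exon length, the order of the members changed with obstruction. At day 0 Cebpb was first with 20.9 ± 6.48 (SD, n = 2) scaled CPM per kb in wild type and 14.0 ± 3.10 (SD, n = 4) in KO. Pax8 followed (10.5 ± 0.370 and 10.5 ± 0.469), then Pax2 (9.12 ± 0.228 and 9.38 ± 1.38) and Sox4 (7.88 ± 0.795 and 7.61 ± 0.539). In KO the ranges of Cebpb and Pax8 overlapped, as did those of Pax8 and Pax2. Sox9 (0.205 ± 0.0618 and 0.226 ± 0.0841) and Runx1 (0.181 ± 0.0283 and 0.224 ± 0.0422) could not be ordered, and Sox11 (0.0655 ± 0.0104 and 0.0559 ± 0.0358) was last. At day 5 Sox4 was first, with 36.9 ± 3.45 in wild type and 34.1 ± 1.85 in KO (SD, n = 3 each), above the highest Cebpb library of either genotype (22.0 and 28.8). Sox9 was at 6.62 ± 2.11 and 7.49 ± 7.78, between Pax2 (12.5 ± 2.003 and 12.4 ± 1.82) and Runx1 (2.96 ± 0.302 and 2.08 ± 0.462) by mean, and 1 KO library of Sox9 (16.4) lay above the Pax2 range. Pax2 was 79.8% to 104% of Pax8 per kb at day 0 and 56.2% to 92.5% at day 5, and its lowest shares were in the Y-linked library of each genotype, 61.9% in wild type and 56.2% in KO.

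**Figure D3:**
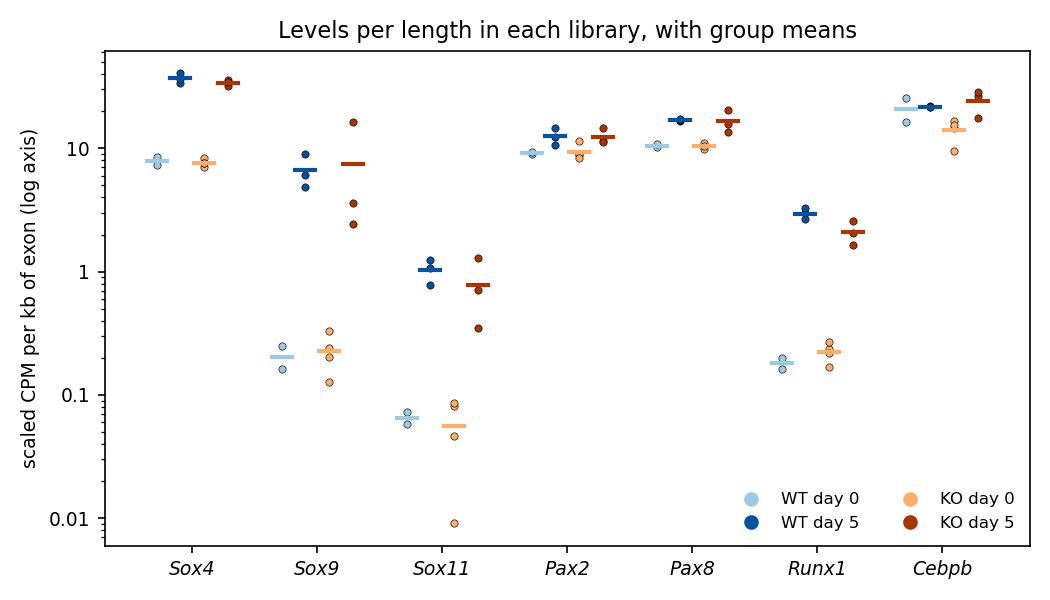
Scaled CPM per kilobase of exon (log axis) of each gene, with 1 point per library and a bar at each group mean. Cebpb is highest by mean at day 0 and Sox4 at day 5, and Sox11 is lowest in all 4 groups.

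The other genes of the members' families are read against the 47.1% (wild type) and 54.8% (KO) of all tested genes that were called in either direction. Among 16 other Sox genes 10 were tested, and 4 were called higher and 1 lower in each genotype (median 0.41 log2 units in wild type and 0.49 in KO, beside 0.04 and 0.07 for all genes). Sox18 and Sox7, SoxF factors of blood vessels, rose by 1.06 ± 0.23 (SE) and 0.89 ± 0.22 in wild type and by 0.75 ± 0.19 and 0.56 ± 0.18 in KO, and Sox7 in KO lost its call in 6 of 25 alternatives, the sex-pattern covariate among them (adjusted p = 0.0994). Sox17, the remaining SoxF gene, had mean scaled CPM of 12.9 at day 0 and 17.8 at day 5 in wild type, and of 13.6 and 13.8 in KO. Endothelial marker sums at day 0 lay between 193 and 294, and at day 5 between 210 and 253. Sox6, a SoxD factor that works with Sox9 in cartilage, fell by 0.93 and by 0.72 log2 units, from 51.9 and 52.5 scaled CPM to 28.6, 29.1 and 24.1 in wild type. Sox12, the third SoxC gene, was 0.38 ± 0.10 in wild type (adjusted p = 0.00913) and 0.07 ± 0.09 in KO (adjusted p = 0.534), and was picked here for being the relative of Sox4 and Sox11. Of 7 other Pax genes only Pax5, Pax6 and Pax9 had enough reads to be tested, and limma called none of the 3 in either genotype.

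Among Runx1's relatives and partners (10 tested), 4 were called higher in wild type and 5 in KO, and none was called lower. Runx2, a factor of bone and cartilage, rose by 2.01 ± 0.29 (wild type) and 1.63 ± 0.24 (KO), and Runx3, known in lymphocytes and sensory neurons, by 1.56 ± 0.25 and 1.27 ± 0.21. Cbfb, which encodes the shared partner CBF-beta, rose by 0.72 ± 0.17 in KO. In wild type Cbfb stood at 0.52 ± 0.20 (adjusted p = 0.0480), a call lost in 15 of 26 alternatives and at 0.09 without wild type day 0 replicate 2. Of the 4 tested genes with known ties to Runx1 in blood cells, 3 were higher and 1 lower in both genotypes. Of all tested genes 47.1% (wild type) and 54.8% (KO) were called in either direction. Spi1, which encodes the myeloid factor PU.1, rose from 3.21 and 4.41 to 35.9, 26.1 and 33.5 scaled CPM in wild type and from 6.18, 5.77, 6.03 and 5.42 to 27.2, 32.7 and 24.1 in KO (2.91 ± 0.18 and 2.16 ± 0.15 log2 units). Csf1r, the macrophage growth factor receptor, rose by 0.59 ± 0.13 and 0.67 ± 0.11, and Gata2 by 0.37 ± 0.12 and 0.36 ± 0.10. Gata2 lost its call in 4 of 26 alternatives in wild type and 1 of 25 in KO, where it was the sex-pattern covariate (adjusted p = 0.0613). Itga2b, the platelet integrin, differed by -0.44 ± 0.16 and -0.35 ± 0.14, a call that ended in 9 of 26 and 12 of 25 alternatives, and with library size alone it was 0.09 in KO. With the sex-pattern covariate Itga2b in KO was -0.36 (adjusted p = 0.0781).

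The C/EBP list (7 tested) had 4 genes higher in wild type and 6 in KO and none called lower. Batf and Batf3, leucine zipper factors of immune cells, rose in wild type by 1.42 ± 0.23 and 1.62 ± 0.27 and by 1.53 ± 0.20 and 0.81 ± 0.23 in KO. Cebpg rose by 0.51 ± 0.07 in KO, and in wild type its 0.22 ± 0.08 lost the call in 13 of 26 alternatives. Atf4, of the integrated stress response, rose by 0.32 ± 0.08 in KO and stood at 0.31 ± 0.10 in wild type, called except in 3 of 26 alternatives. Cebpd, chosen after its values were seen because its pattern resembled that of Cebpb, was 0.50 ± 0.35 in wild type (adjusted p = 0.260) and rose by 1.54 ± 0.29 in KO (adjusted p = 0.000653). Its levels were 20.8 and 44.7 in wild type at day 0 and 36.9, 64.7 and 34.4 at day 5, with an overlap, and 13.9, 21.0, 23.7 and 20.5 and then 50.4, 47.1 and 79.6 in KO, without one. The interaction of Cebpd was 1.04 ± 0.45 (adjusted p = 0.649). Of 11 tested acute-phase and inflammatory genes with known C/EBP sites, 7 were called higher in each genotype, beside 24.5% (wild type) and 29.4% (KO) of all tested genes. Lcn2 (an iron-carrier binding protein) rose by 6.35 ± 0.32 and 5.83 ± 0.26, C3 (the central complement component) by 5.48 ± 0.52 and 5.55 ± 0.44, and Fgb (a fibrinogen chain) by 2.76 ± 0.32 and 2.93 ± 0.27. Leaving out day 0 replicate 1 or 2 put the wild type value of C3 at 4.23 and 6.73. Hp, haptoglobin, rose by 4.52 ± 0.97 in wild type. In KO it stood at 2.24 ± 0.81 and lost its call in 7 of 25 alternatives, with 0.92 without day 5 replicate 2 and 3.37 without day 5 replicate 3. The sex-pattern covariate gave Hp 3.23 in KO (adjusted p = 0.0042).

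**Figure D4:**
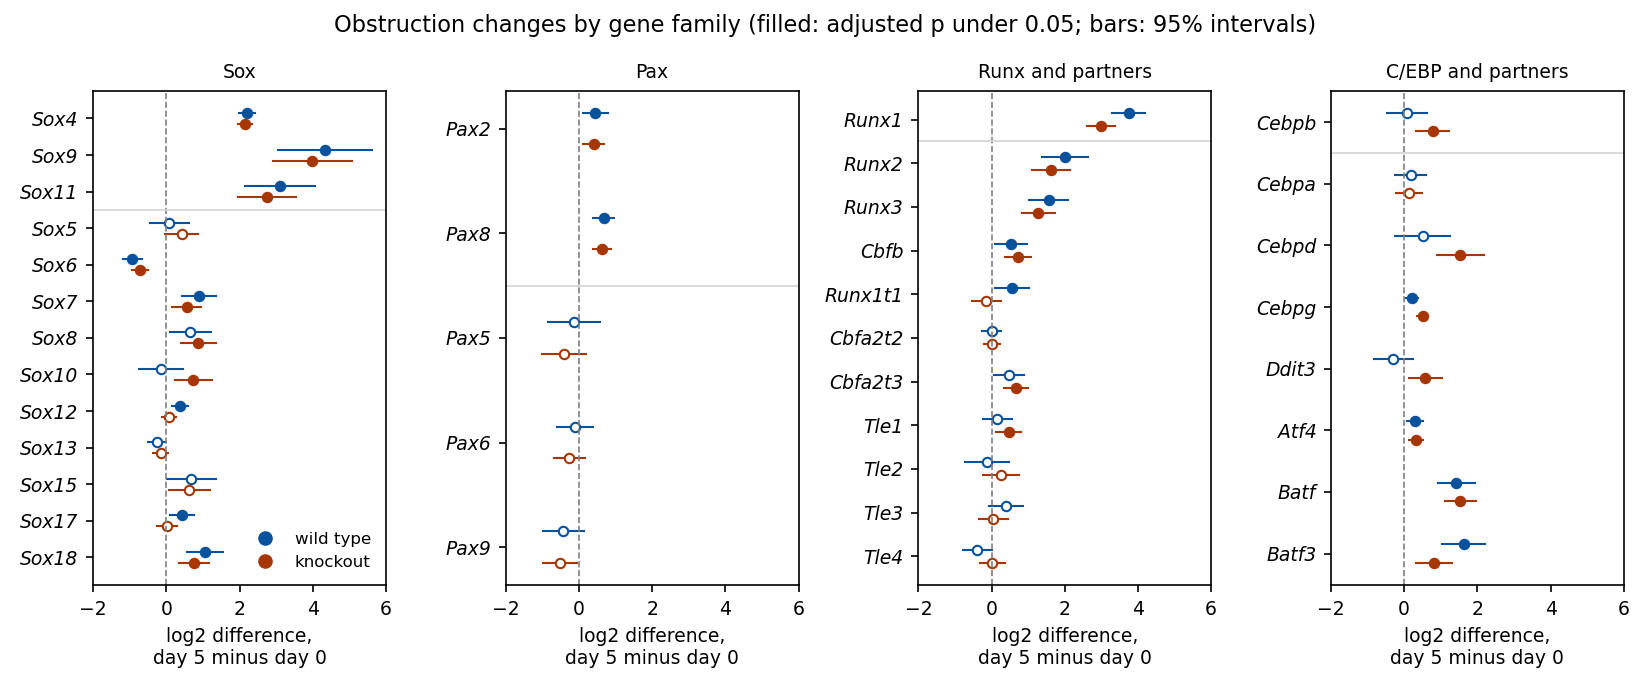
Log2 differences between day 5 and day 0 in wild type (blue) and KO (brown) for the tested genes of the Sox, Pax, Runx and C/EBP lists, with 95% intervals and filled points where the adjusted p was under 0.05. The members stand above the grey line in each panel, and Sox9, Runx1, Sox11 and Sox4 have the largest differences shown.

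Other transcription factors of kidney development moved in both directions, as tested genes did in general. Of 34 tested, 9 were called higher and 7 lower in wild type (median -0.05 log2 units), beside 24.5% and 22.6% of all tested genes. In KO 7 were called higher and 5 lower (median 0.10), beside 29.4% and 25.4%. Lhx1, a factor of the renal vesicle, fell by 1.53 log2 units in wild type and by 0.96 in KO (a KO call lost with library size alone, -0.52), and Irx1, a patterning factor of the nephron, fell by 1.17 and by 1.14. Tcf21, a factor of stromal cells and podocytes, rose by 1.84 ± 0.53 in wild type (adjusted p = 0.0119, and 0.0914 without day 0 replicate 2). In KO Tcf21 stood at 1.14 ± 0.44, lost its call in 10 of 25 alternatives, and was 0.49 with the sex-pattern covariate (adjusted p = 0.321) and 1.81 without day 5 replicate 2. Tbx18, of the ureteric mesenchyme, had 6 reads in wild type and 8 in KO at day 0 and 89 and 59 at day 5. Its differences of 1.296 ± 0.45 and 1.07 ± 0.37 lost their calls in 8 of 26 and 4 of 25 alternatives, and the sex-pattern covariate put Tbx18 at 1.67 in KO.

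Genes with known ties to the members were read from short lists, and no set was tested. Of all tested genes, 24.5% were called higher in wild type and 29.4% in KO, and 22.6% and 25.4% lower. For Sox9, 4 of 10 tested genes were called higher in wild type and 6 in KO. Vgf, a secreted peptide precursor described downstream of Sox9 in tubule injury, had 2 reads over the wild type and 5 over the KO libraries at day 0. At day 5 it had 94, 190 and 140 in wild type and 59, 60 and 51 in KO (3.62 ± 0.27 and 2.44 ± 0.22 log2 units). Among the KO libraries at day 5 replicate 2 had the most Vgf as well as the most Sox9 (2.96 scaled CPM of Vgf against 2.60 and 2.37), and all 3 lay below the wild type libraries (4.44, 9.57 and 6.13), a difference that was not called. Wnt4, the signal that turns mesenchyme into nephrons, rose by 2.48 ± 0.29 and 3.00 ± 0.24, and Col11a1, a cartilage collagen, by 2.57 ± 0.28 and 2.03 ± 0.24. For Sox4 and Sox11, both tested genes were called in both genotypes: Tead2, a partner of YAP, rose by 2.08 ± 0.16 and 1.85 ± 0.14, and Tubb3, a neuronal tubulin, by 2.18 ± 0.41 and 1.21 ± 0.34 (a KO adjusted p of 0.0513 without day 5 replicate 1).

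For Pax2 and Pax8, 3 of 7 genes were called higher and 1 lower in wild type, and 3 higher and 2 lower in KO. In either direction 47.1% (wild type) and 54.8% (KO) of all tested genes were called. Gata3, a factor of the collecting duct, rose by 0.67 ± 0.12 and 0.88 ± 0.10. Gdnf, the ligand that draws out the ureteric bud, had 5 and 8 reads in the day 0 groups and 45 and 53 at day 5 (0.90 ± 0.30 in wild type, lost in 3 of 26 alternatives, and 1.06 ± 0.25 in KO). Wnt4 and Lhx1 are on this list too. Injured tubule genes outside the 7 gave the context of the label: 13 of 15 were called higher in wild type and 15 of 15 in KO (medians 2.89 and 2.96). Havcr1 rose by 7.89 ± 0.59 and 7.35 ± 0.49, Krt20 by 7.46 ± 0.54 and 6.57 ± 0.45, and Vcam1 by 5.13 ± 0.39 and 5.10 ± 0.33. Without KO day 5 replicate 2, Havcr1 and Krt20 in KO were 6.71 and 5.94. With the sex-pattern covariate Havcr1 and Vcam1 in KO were 8.32 and 5.76. For wild type Havcr1, leaving out day 0 replicate 1 or 2 gave 8.74 and 7.04. Low day 0 levels of Krt20, Vgf, Col11a1, Tubb3, Tbx18 and Gdnf make their log2 differences depend on the 0.5 CPM added.

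The genes most like each member were found by the root mean square difference (RMS) of log2 values over the 12 libraries, each gene centred on its mean. This is a description and draws on both days. For Sox4 they were Cdh3, Rcn1, Myo1f, Gpx7 and Arhgap30 (RMS 0.152 to 0.166 log2 units, where the median gene was at 1.09). Sox11 was nearest to Fbln2, Traf1, Syt8, Ms4a4a and Col1a2 (RMS 0.303 to 0.324, median gene 1.55). Runx1 was nearest to Adgrg2, Samd5, Slc25a24, Creb5 and H2-DMb2 (0.282 to 0.303, median gene 1.67). Around Sox9 stood Ccl9, Akr1b8, Sprr2g, Cd14 and Cd44 at RMS 0.470 to 0.4998 (median gene 2.16), a looser fit than for the other Sox genes. Pax8 had Npm1, Capn2, Wdr1, Sdcbp and Bin1 at 0.0779 to 0.0850 (median gene 0.451), and Pax2 had Mitd1, Map4k5, Il10rb, Fam117a and Pak6 at 0.0761 to 0.119 (median gene 0.398). Cebpb stood most alone relative to its own spread, with Vmp1, Chkb, Dnah10, Pcdhgc4 and Rps13-ps4 at 0.228 to 0.238 against 0.514 for the median gene.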

How the data were processed

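RNA of 12 left kidneys was sequenced with 50-base reads. Per the submitters' processing notes, the authors used STAR, SAMtools and HTSeq with GRCm38.p6, and versions are not given in the sources used here. The deposited values are CPM, since every column sums to the same total. Division by the smallest step gave whole reads (100% of 665652 values within 0.001 of a whole number), which edgeR 4.0.16, DESeq2 1.42.0 and limma-voom used as alternatives. With them edgeR called 4330 genes higher and 4130 lower in wild type obstruction and 5350 and 4482 in KO obstruction. The main test was limma 3.58.1 (empirical Bayes with a trend, R 4.3.3) on log2(CPM / TMM factor + 0.5) over 4 groups in 1 fit, after filterByExpr (minimum count 10, total 15), called at an adjusted p of 0.05. The method was also run on simulated counts that held no sex or cell composition effects, and no conclusion is drawn from that run. Coordinates and exon lengths are from GENCODE M21 (55144 of 55471 identifiers matched, 327 did not), promoters from RefSeq (GRCm38.p6, 6 of 7 members matched). No 50-base sequence of the 7 genes' transcripts occurs, read in the same direction, in another gene's transcripts. The reverse complement was not searched. Exons of genes on the opposite strand overlap 2616 exon bases of Sox4, 367 of Pax8, 312 of Cebpb and 106 of Runx1, and reads there would be shared if strand was not used.

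Every member was named. From each list the text names up to 4 genes called in both obstruction comparisons in the same direction, by the largest mean change, and for each member the 5 most similar genes, predicted gene models left out. The members and lists were chosen with earlier results of these data known. The ratios of pooled reads and the term for the sex-chromosome pattern were computed after the values had been seen. Libraries with over 10 summed CPM of the Y-linked genes were called Y-linked. Alternatives were other tests, scalings, filters and pseudocounts (0.1 and 1 CPM), the sex-chromosome pattern as a covariate, Xist libraries alone, only the groups compared, and each library left out. Figures were drawn with matplotlib 3.10.9.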

Additional observations from a re-analysis of the deposited data

Results flagged for a closer look

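Among the 39 named genes, 2 had a library that stood apart from the other 3 of the KO day 0 group by Dixon's test, which by chance flags about 1 in 20 groups. Sox6 stood at 46.0 scaled CPM in replicate 2, where the others were at 49.9 to 50.7. Krt20 stood at 1.61 scaled CPM in replicate 4 (27 reads), where the others had 4 to 8 reads. None of the 7 members was marked in this way, and groups of 2 and 3 libraries were not examined.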

How the results depend on the processing

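The number of members called was 5 to 6 over 26 alternatives in wild type obstruction and 6 to 7 over 25 in KO obstruction, also when each library was left out in turn, and the member lost was Pax2 each time. It was 0 under every alternative for KO against wild type at day 0 and day 5 and for the interaction. DESeq2 gave no member an adjusted p at day 5, and Sox11 none for the interaction, which counted as not called. Of 2513 single-gene values under the alternatives, 2405 kept their side of the threshold, 107 lost a call, and 1 changed its direction: Itga2b in KO obstruction with library size alone (0.0853). Among values called in no setting, 36 changed sign. The cause of these changes was not tested. Calls on Sox4, Sox9, Sox11, Pax8 and Runx1 held in every alternative in both genotypes, with Sox4 between 2.10 and 2.63 log2 units in wild type and between 2.07 and 2.60 in KO. No paired analysis was possible because the labels give no replicate numbers. Few reads at day 0 limit Sox11 and Sox9, and 2 wild type kidneys at day 0 limit every wild type comparison.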
